A study of Drosophila melanogaster with 3 samples.

Results

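The proteasome subunit genes of Drosophila melanogaster were taken as the protein-coding genes whose symbol is Rpn or Rpt followed by a digit, or starts with Prosalpha or Prosbeta, in the Ensembl annotation of the dm6 build. This gave 48 genes of the 13945 protein-coding genes on the 6 chromosome arms used here. The standard subunits made up 32 of them, with 14 genes of the core particle (7 of the alpha ring and 7 of the beta ring) and 18 genes of the regulatory particle (10 of its base and 8 of its lid). The other 16 were duplicate copies, whose symbols carry a T (4 genes) or an R (12 genes) after the subunit number.

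Chrac-16, a histone-fold subunit of the chromatin accessibility complex CHRAC, was mapped by ChIP-seq in 3 biological replicates of 1 group. The chromatin came from whole embryos of pooled sexes, collected at 0 to 24 h, of the Chrac-16-GFP line, which stably carries a fusion of GFP to the C-terminus of the protein, and sonicated fragments of 200 to 800 bp were pulled down with anti-GFP antibody. There was no second genotype, treatment or stage, the promoter that drives the fusion is not given in the sources used here, and whole embryos mix many cell types and ages while holding no adult testis. The optimal list held 4941 peaks, the pooled list 24641, and the relaxed lists of replicates 1, 2 and 3 held 30000, 24619 and 29140, with no read counts, so depth is unknown.

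The proteasome degrades proteins tagged with ubiquitin. Its barrel-shaped core particle stacks rings of alpha subunits, which form the gate, on rings of beta subunits, some of which carry the protease sites, and the regulatory particle caps it: the ATPases Rpt and the scaffolds of the base unfold the substrate, while the lid removes its ubiquitin. Because the subunits are needed in fixed proportions, their genes are known for coordinated expression, in flies under the factor Cnc when the proteasome is inhibited, and many of the duplicate copies are known for expression in the male germline.

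In the optimal list, 10 of the 48 genes (20.8%) had a summit, the highest point of a peak, within 500 bp of one of their transcript starts, beside 22.5% of all protein-coding genes. All 10 were standard subunits (31.2% of 32). By class, the share was 5 of 8 for the lid (62.5%), 3 of 10 for the base (30%), 2 of 14 for the core particle (14.3%, 1 gene in each ring) and 0 of 16 for the duplicate copies. Leaving out 1 replicate at a time used another rule, a summit among the strongest 4941 peaks of every replicate kept. With all 3 replicates kept, this rule gave 5 of the 48 genes (10.4%), with 0 core genes, beside 17.5% of all protein-coding genes. A change from the optimal list therefore mixes the rule with the replicate left out. Without replicate 1, 5 of the 48 genes (10.4%) had a summit among the strongest 4941 peaks of both remaining replicates, beside 19% of all protein-coding genes, and all 5 were of the regulatory particle. Without replicate 2 the count was 10 (20.8%, beside 19.1%), with 2 core and 8 regulatory particle genes. They were not the same 10 genes: 8 were in the optimal list, Prosalpha6 and Rpn8 were gained, and Prosalpha5 and Rpn6 were lost. Without replicate 3 the count was 6 (12.5%, beside 18.8%), with 0 core and 6 regulatory particle genes. For the 32 standard genes alone the share was 15.6%, 31.2% and 18.8% without replicates 1, 2 and 3, so it was above the share of all genes only without replicate 2.

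In the longer pooled list, which contains the optimal list as its strongest peaks, 30 of the 48 genes (62.5%) had such a summit, beside 49.7% of all protein-coding genes. The standard subunits accounted for 28 of them, 28 of 32 (87.5%), with all 8 lid genes, 9 of 10 base genes and 11 of 14 core genes (6 of 7 alpha and 5 of 7 beta). The duplicate copies held the remaining 2 of 16 (12.5%). Standard subunits with a pooled summit reached the optimal list in 35.7% of cases, against 45.2% of all protein-coding genes with a pooled summit. The classes came in the same order in both lists, lid first and copies last, except that the alpha and beta rings were equal in the optimal list. With a single group and genes picked by name, these shares are descriptions without a test.

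**Figure D1:**
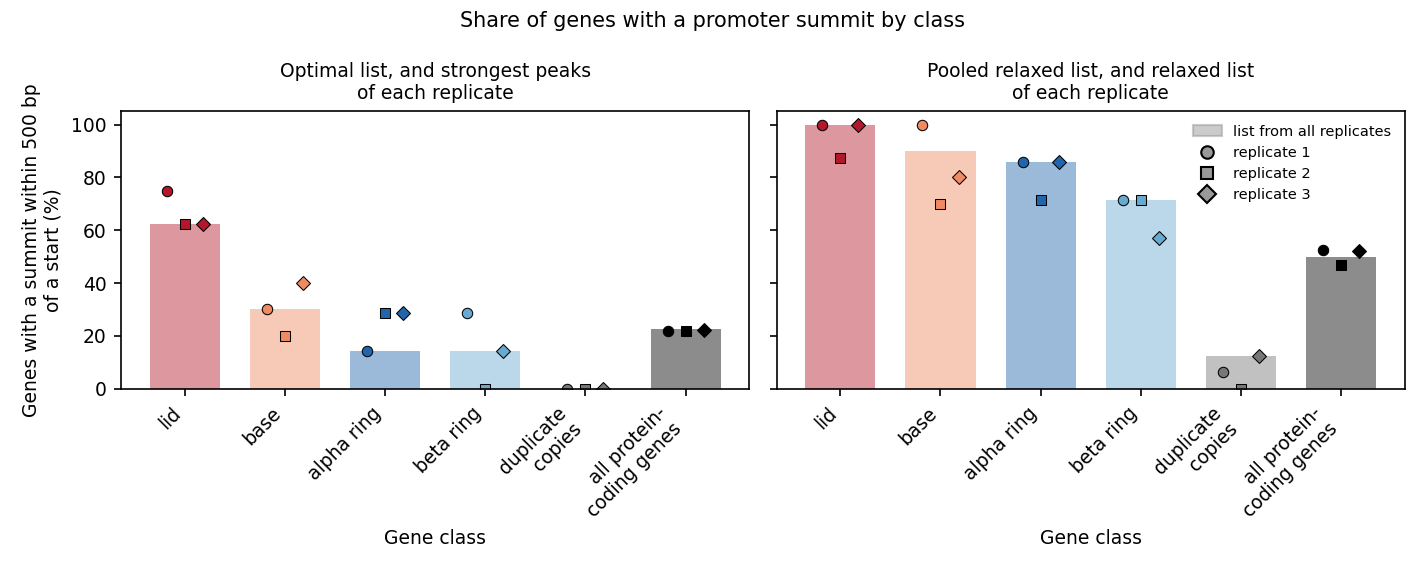
Share of genes (%, vertical axis) with a summit within 500 bp of a start, by gene class. Bars show the optimal list (left) and the pooled list (right), and points show the strongest 4941 peaks (left) or the whole relaxed list (right) of each of the 3 replicates. The lid bar stands at 62.5% on the left and 100% on the right, and the duplicate copies stand at 0 and 12.5%.

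The strongest summits belonged to the lid. Rpn3, a scaffold subunit of the lid, had a signal of 394 in the optimal list, rank 599 of 4941 peaks, with 120.5, 141 and 121 in the lists of replicates 1, 2 and 3. The signal is the authors' own value for each peak, and its scale differs between the pooled and the replicate lists, so that values compare only within a list. The peak lay at chr2L:19051723-19051895 and its summit 6 bp downstream of the start of Rpn3, in its untranslated region, and the 3 replicate summits lay 13, 6 and 5 bp upstream. No other subunit gene was as strong in any replicate. The percentile of Rpn3, the share of a list's peaks at or below its signal, was 97.6 to 97.8 in the replicate lists.

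Rpn5, another lid scaffold, had 2 optimal summits. The stronger one had a signal of 306 (rank 978) at position -266 bp from the start, in an intron of the divergent gene Hat1, which codes for a histone acetyltransferase, and the weaker one had 147 (rank 3059) at 44 bp upstream. Rpn5 scored 118, 83.9 and 110 in replicates 1, 2 and 3, all at percentile 94.2 or above. Rpn11, the metalloprotease that cuts ubiquitin chains off the substrate, had 173 (rank 2426) at 180 bp upstream, between genes, and 70.8, 46.8 and 70.3 in replicates 1, 2 and 3. Ranked within each list, both genes stood lowest in replicate 2, at percentile 94.2 for Rpn5 and 86.6 for Rpn11.

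The sequence under these 3 summits is shown because these genes had the strongest summits of the 48. It is given on the strand of the gene, from the release 6 genome, with a match to TATAAA in capitals, and centres on the summit except for Rpn3, where only the bases before the start are given.
Rpn3, chr2L:19051746-19051789, + strand: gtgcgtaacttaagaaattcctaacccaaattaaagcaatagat
Rpn5, chr3R:5789177-5789277, + strand: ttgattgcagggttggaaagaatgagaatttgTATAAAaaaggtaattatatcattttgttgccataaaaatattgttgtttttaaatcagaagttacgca
Rpn11, chr2L:5059920-5060020, - strand: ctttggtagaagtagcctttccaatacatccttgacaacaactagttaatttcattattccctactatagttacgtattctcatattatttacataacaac
Of the 3 windows, the one at Rpn5 contains TATAAA, which there lies far upstream of the start, and none of the 3 holds any of the other short motifs searched.

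Among the remaining lid genes, Rpn6, a lid subunit that also contacts the core particle, had an optimal signal of 143 (rank 3152). The summit lay 109 bp upstream of the more downstream of its 2 starts, in an intron of Rpn6. Rpn6 scored 74.7, 39.8 and 32.5 in replicates 1, 2 and 3, at percentiles 94.5, 83.5 and 81.7, and it was not among the strongest 4941 peaks of replicate 3. Rpn12, a lid subunit, had 139 (rank 3297) at 155 bp upstream, and 55.8, 37.6 and 48.2 in replicates 1, 2 and 3. Both genes ranked highest in replicate 1. Rpn8, the partner of Rpn11, lay just outside the optimal list with 99.2 in the pooled list (rank 4967), where the lowest optimal signal was 99.6, and it was among the strongest peaks of replicates 1 and 3. Rpn7 had 77.6 and Rpn9 had 52.2 in the pooled list, so that the lid spanned the range from 52.2 to 394 with a median of 141, above the median of 87.9 over all protein-coding genes with a pooled summit.

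The base gave lower values. Rpn10, a ubiquitin receptor, had an optimal signal of 169 (rank 2516) at 30 bp downstream of its start, in its own untranslated region, and 47.9, 60.7 and 48.1 in replicates 1, 2 and 3. Rpt5, one of the 6 ATPases, had 139 (rank 3270) at 36 bp upstream, and 50.8, 32.6 and 53.4 in replicates 1, 2 and 3. Rpn2, the large scaffold of the base, had 109 (rank 4446) at 42 bp upstream, and 41.6, 26.5 and 38.5 in replicates 1, 2 and 3. Rpn10 was the only one of the 3 to stay among the strongest peaks of every replicate, since Rpt5 and Rpn2 dropped out in replicate 2.

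Of the other base genes, the ATPases Rpt2 (89.2), Rpt1 (83.6), Rpt3 (54.2) and Rpt6 (41.8) had pooled summits but no optimal one. Rpt1 and Rpt2 also had a summit in every replicate's relaxed list, and Rpt3 and Rpt6 in some of them. The ubiquitin receptor Rpn13 had 79.2 and the scaffold Rpn1 had 56.0. Rpt4 had no pooled summit, and its single summit was in replicate 1, with a signal of 14.5. Rpt6 was the weakest standard gene of the pooled list (rank 14768), and the 9 base genes with a summit had a median of 83.6.

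In the core particle, Prosbeta1, which carries the caspase-like protease site, had an optimal signal of 137 (rank 3357) at 78 bp upstream, and 54.8, 29.1 and 39.9 in replicates 1, 2 and 3. It was missing from the strongest peaks of replicate 2. Prosalpha5, of the alpha ring, had 103 (rank 4734) at 52 bp upstream, and 30.4, 40.4 and 30.1 in replicates 1, 2 and 3. It was among the strongest peaks of replicate 2 alone, so that no core gene was among the strongest peaks in all 3 replicates. The next core gene, Prosalpha6, lay just outside the optimal list with 97.9 (rank 5044), and was among the strongest peaks of replicates 1 and 3.

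The alpha ring was narrow in range: Prosalpha7 (84.7), Prosalpha3 (84.7), Prosalpha4 (79.1) and Prosalpha2 (65.9) followed in the pooled list, and the 6 genes had a median of 84.7. The beta ring was lower, with a median of 59.9 over its 5 genes. It included Prosbeta5 (68.3), which carries the chymotrypsin-like site, Prosbeta2 (54.3), which carries the trypsin-like site, and the structural subunits Prosbeta3 (59.9) and Prosbeta4 (53.3). Prosbeta6 and Prosbeta7 had no pooled summit: Prosbeta6 had one in replicate 3 alone, with a signal of 11.3, and Prosbeta7 had none in any list. At both of these starts 100% of the 31-base words within 500 bp occurred once in the genome.

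Prosalpha1 also had no summit in any list, and its start could not be assessed. None of the 31-base words within 500 bp of its start was unique in the genome, and the same held for its copy Prosalpha1R, whose protein of 244 residues was 100% identical. Every other subunit gene had at least 89.3% unique words around its start. Leaving out starts under 50% unique, a choice made after seeing the data, gave an optimal summit at 10 of 31 standard genes (32.3%) and a pooled summit at 28 of 31 (90.3%), beside 23% and 50.8% of 13625 protein-coding genes.

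**Figure D2:**
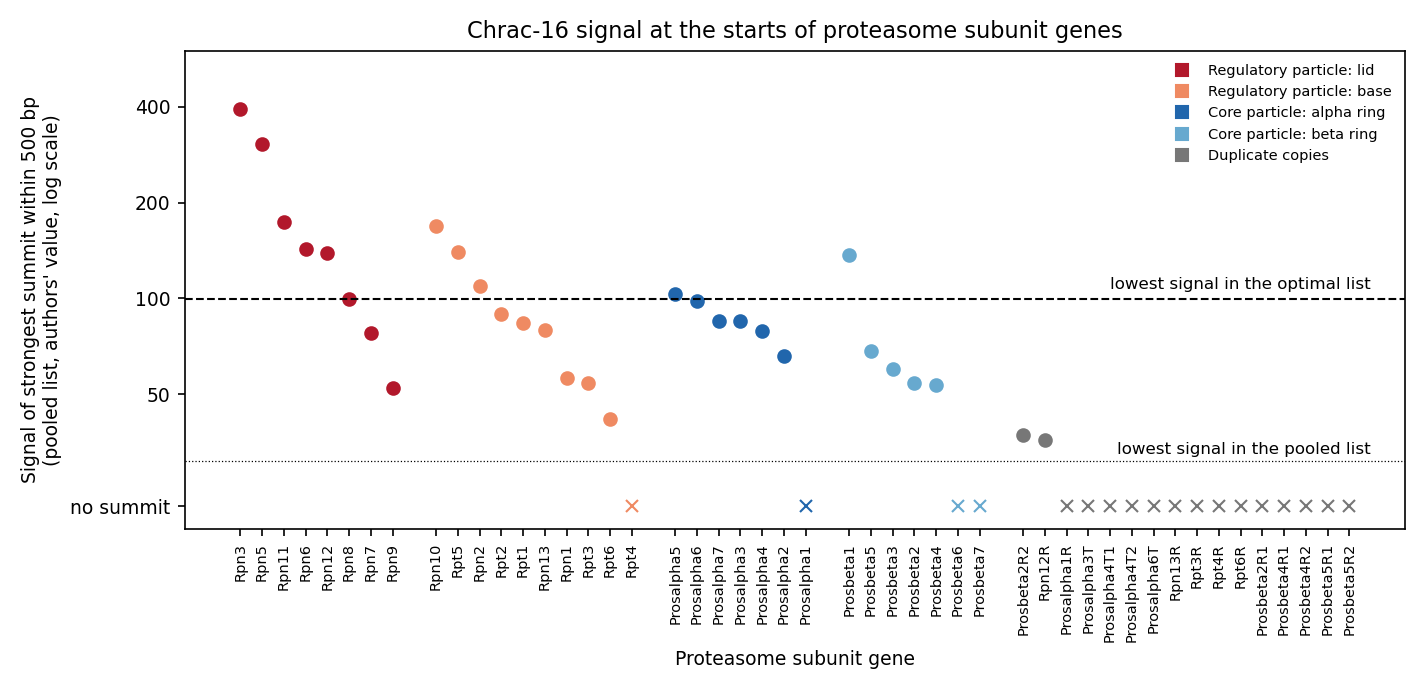
Signal of the strongest summit within 500 bp of a start in the pooled list (authors' value, logarithmic vertical axis) for each of the 48 genes, by class, with crosses for genes without a summit. The dashed line is the lowest signal in the optimal list (99.6), and 5 lid, 3 base, 1 alpha and 1 beta gene lie above it, while both copies with a summit lie near the lowest signal of the pooled list (30.9).

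The signal of the subunit genes in the optimal list was not high for that list. The 10 genes had a median of 141, against a median of 198 over all 3137 protein-coding genes with an optimal summit, and only Rpn3 and Rpn5 exceeded that value. In the pooled list the 28 standard genes had a median of 84.7, against 87.9 over 6934 protein-coding genes. In the relaxed lists of replicates 1, 2 and 3 the standard genes had medians of 30.4, 32.2 and 32.6, against 27.6, 31.7 and 28.6 over all protein-coding genes, so the order of the medians differed between the pooled and the replicate lists. The lid had a median of 173 in the optimal list, below that of all genes there, and was above it in the pooled list.

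In every replicate's relaxed list the regulatory particle had a higher share than the core particle, and the copies had the lowest share. The order of the base and the rings varied between replicates. In replicate 2 the base had 70% and each ring 71.4%, and in replicate 3 the base had 80% and the alpha ring 85.7%. A summit was present in the relaxed list at 30, 24 and 28 of the 48 genes in replicates 1, 2 and 3, beside 52.7%, 47.0% and 52.3% of all protein-coding genes. For standard genes alone the counts were 29, 24 and 26 of 32, or 82.3% ± 7.86 (SD, n = 3), against 50.7% ± 3.21 (SD, n = 3) of all protein-coding genes. The lowest share of standard genes, 75% in replicate 2, was above the highest share of all genes. Regulatory particle genes had 18, 14 and 16 of 18 (88.9% ± 11.1), and core genes had 11, 10 and 10 of 14 (73.8% ± 4.12). Replicate 2 had both the shortest list and the fewest subunit genes; the part of list length in that count was not tested.

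Limited to the strongest 4941 peaks of each replicate, 12, 9 and 12 of the 48 genes had a summit in replicates 1, 2 and 3, beside 22.0%, 21.9% and 22.4% of all protein-coding genes. The share of all 48 was 22.9% ± 3.61 (SD, n = 3), against 22.1% ± 0.268 (SD, n = 3) of all genes. The gap was smaller than the SD of the 48 genes between replicates. For the 32 standard genes alone it was 34.4% ± 5.41 (SD, n = 3), with 28.1% in the lowest replicate. The lid had 6, 5 and 5 of 8 (66.7% ± 7.22) and the base 3, 2 and 4 of 10 (30% ± 10). The core particle had 3, 2 and 3 of 14 (19% ± 4.12), within its spread of the share over all genes. The copies had none in any replicate. The 5 genes found in all 3 replicates were Rpn3, Rpn5, Rpn10, Rpn11 and Rpn12, all of the regulatory particle. They were 10.4% of the 48 genes, against 17.5% of all protein-coding genes, and 4 of the 5 belonged to the lid.

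The optimal list and the strongest peaks of single replicates overlapped in part. Of the 12 subunit genes among the strongest peaks of replicate 1, 9 were in the optimal list, and the counts were 7 of 9 in replicate 2 and 8 of 12 in replicate 3. Genes present in a replicate and missing from the optimal list included Rpn8 and Prosalpha6 (replicates 1 and 3), Prosbeta5 (replicate 1), Prosalpha7 and Rpn13 (replicate 2), and Prosalpha3 and Rpt2 (replicate 3). All of these had pooled signals between 68.3 and 99.2, below the lowest optimal signal.

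**Figure D3:**
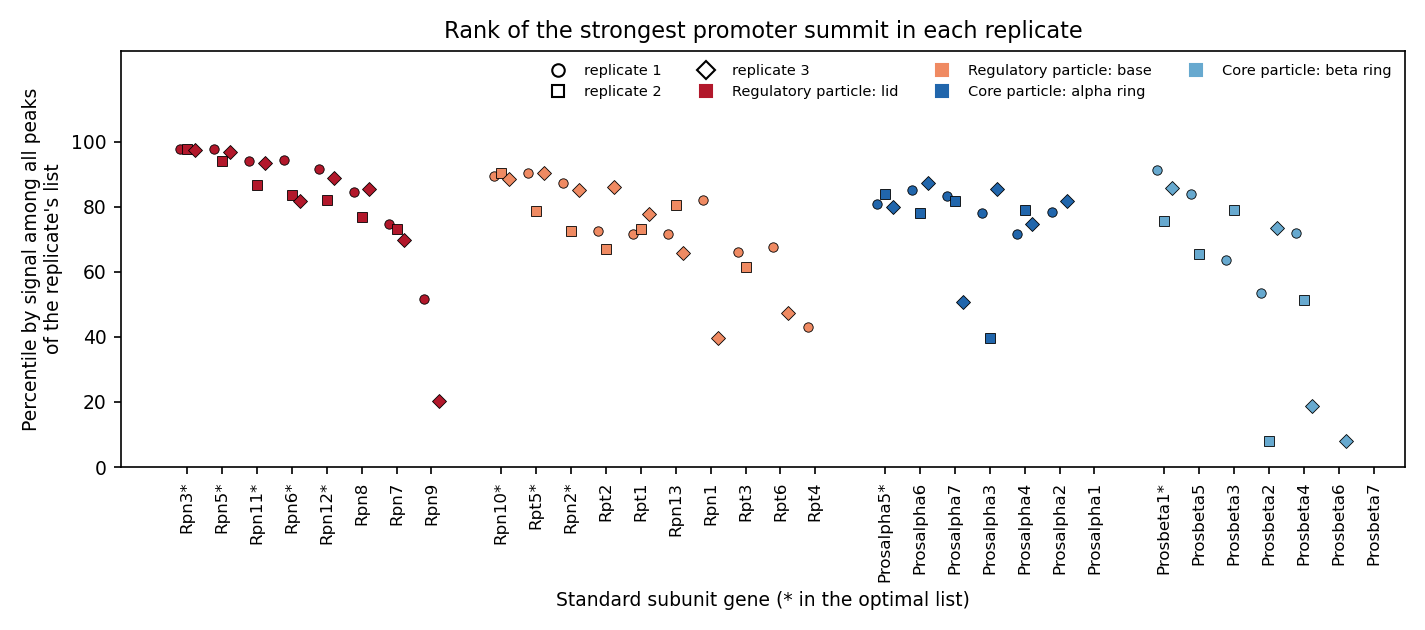
Percentile of the strongest promoter summit by signal among all peaks of each replicate's relaxed list (vertical axis), for the 32 standard genes by class, with 1 symbol per replicate and no symbol where a replicate had no summit. Rpn3 lies between 97.6 and 97.8 in all 3 replicates, while Prosalpha3, Prosalpha7, Prosbeta2 and Prosbeta4 spread widely (53.4, 8.04 and 73.4 for Prosbeta2).

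Some genes changed rank widely between replicates. Prosbeta2 stood at percentile 53.4, 8.04 and 73.4 in replicates 1, 2 and 3, and Prosalpha3 at 78.2, 39.7 and 85.6. Prosalpha7 stood at 83.2, 81.9 and 50.6, so that the replicate with the lowest value differed from gene to gene. In all, 21 of the 32 standard genes had a summit in every relaxed list (65.6%), against 37.8% of all protein-coding genes. The genes that lacked one in exactly 1 replicate were Prosalpha2, Rpn1, Rpn9 and Rpt6, which were missing in replicate 2, and Prosbeta3, Prosbeta5 and Rpt3, which were missing in replicate 3.

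In the optimal list, the strongest summits of the 10 genes had a median position of 65 bp upstream (-65 bp), and 8 of the 10 were upstream, against a median of -136 bp over all protein-coding genes with an optimal summit, of which 90.1% were upstream. That median moved with the list: it was -128, -126.25 and -138 bp among the strongest peaks of both remaining replicates without replicates 1, 2 and 3, and -180 bp in the upper 50% of the optimal list by signal. In the strongest peaks of replicates 1, 2 and 3 the median over subunit genes was -97, -83 and -62.5 bp (-80.8 ± 17.4 bp, SD, n = 3). Over the 28 standard genes of the pooled list the median was -102 bp, with 25 upstream, against -109 bp over all protein-coding genes. Lid summits were the most distant, with a pooled median of -180.5 bp, while base summits had a median of -45 bp and core summits of -91 bp. The summits downstream of a start were those of Rpn3 (6 bp), Rpn10 (30 bp) and Rpt1 (3 bp).

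**Figure D4:**
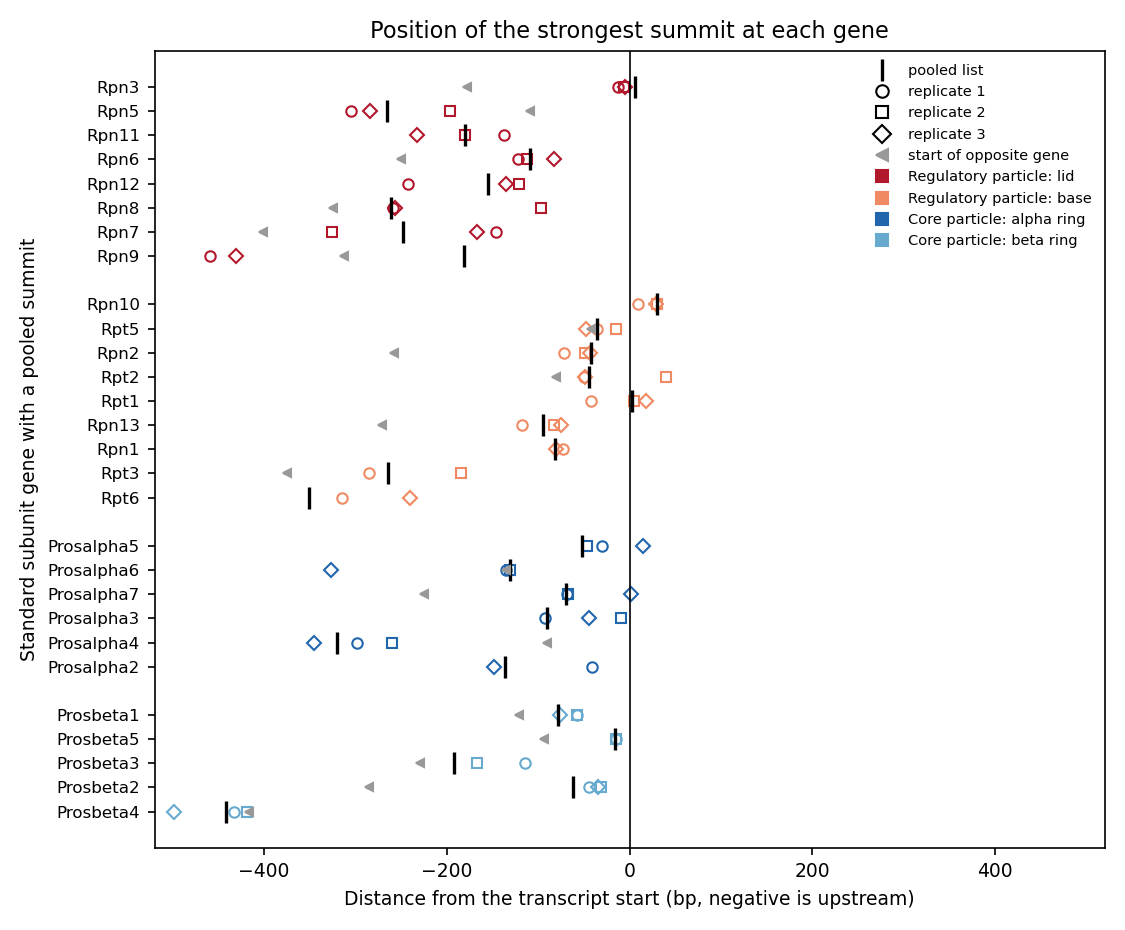
Position of the strongest summit relative to the transcript start (bp, horizontal axis, negative is upstream) for the 28 standard genes with a pooled summit, with a bar for the pooled list, open symbols for the 3 replicates and grey triangles for the start of a gene on the opposite strand. Of the 28 bars, 25 lie left of 0, and those of the lid lie farther left (median -180.5 bp) than those of the base (median -45 bp).

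Many subunit genes share their upstream region with a divergent neighbour. A start on the opposite strand lay within 1000 bp upstream at 22 of 32 standard genes (68.8%) and at 4 of 16 duplicate copies (25%), against 39.6% of all protein-coding genes. Of the 10 genes in the optimal list, 6 had such a neighbour (60%), against 69.1% of all genes in that list. The neighbours were l(2)37Bb at Rpn3, Hat1 at Rpn5, ave at Rpn6, RanBP3 at Rpt5, Slbp at Rpn2 and Rrp42 at Prosbeta1. At Rpt5, Prosbeta1 and Rpn5 the strongest summit was nearer to the start of the neighbour (6 bp from RanBP3, 43 bp from Rrp42 and 153 bp from Hat1). The pooled summit was nearest to the gene's own start at 16 of 28 standard genes (57.1%), against 76.2% of all protein-coding genes with a summit, so at the other standard genes it lay nearer to another gene's start. The gap was smaller in the other lists. It was 70% against 69.6% in the optimal list. In replicates 1, 2 and 3 it was 69%, 75% and 69.2%, against 77.4%, 76.7% and 76.9%.

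The counts were also split by this arrangement. Among divergent genes, 6 of 22 standard subunits (27.3%) had an optimal summit, against 39.2% of all divergent genes. Among the others, 4 of 10 (40%) had one, against 11.5% of all genes without a divergent neighbour. Those 4 were Rpn10, Rpn11, Rpn12 and Prosalpha5. In the pooled list 20 of 22 divergent standard genes (90.9%) and 8 of 10 others (80%) had a summit, against 71.3% and 35.5% of all protein-coding genes of the same arrangement. The part of promoter arrangement in the difference between standard subunits and all genes was not tested beyond this split.

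Standard genes without an optimal summit had the nearest one at 1111 to 20330 bp (median 5057 bp). By chromosome, the 4 standard genes of X (Prosalpha4, Rpt3, Rpt4 and Rpt6) had no optimal summit and 3 of the 4 had a pooled one, against 20.4% and 50.9% of all protein-coding genes of X. No subunit gene lay on chromosome 4.

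The duplicate copies had few summits, and weak ones. None of the 16 had an optimal summit, and the nearest one lay at 3035 to 72928 bp (median 27828 bp). In the pooled list the copy Prosbeta2R2 had 37.3 (rank 17871) and Rpn12R had 35.8 (rank 19083), both near the lowest signal of the list, 30.9. The first summit lay 193 bp upstream, in a coding exon of the neighbour CG1116, and the second lay 378 bp downstream, in the coding exon of Rpn12R itself. In the replicate lists the counts were 1, 0 and 2 of 16, with Rpt3R at 11.3 in replicate 1, and Rpt6R at 13.5 and Prosbeta2R2 at 16.7 in replicate 3. Rpn12R had no summit in any single replicate, and none of the 4 copies with a T had a summit in any list.

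The parents of the copies differed from them in the same lists. The 16 copies derive, by symbol, from 12 standard genes, of which 10 had a pooled summit and 1, Rpn12, an optimal one. Prosalpha6T had no pooled summit and its parent Prosalpha6 had 97.9, Prosalpha3T had none and Prosalpha3 had 84.7, and Prosalpha4T1 and Prosalpha4T2 had none and Prosalpha4 had 79.1. Among the base copies, Rpn13R had none and Rpn13 had 79.2, Rpt3R had none and Rpt3 had 54.2, and Rpt6R had none and Rpt6 had 41.8. Both Rpt4R and Rpt4 lacked a pooled summit. Among the beta copies, Prosbeta5R1 and Prosbeta5R2 had none and Prosbeta5 had 68.3, Prosbeta4R1 and Prosbeta4R2 had none and Prosbeta4 had 53.3, and Prosbeta2R1 had none and Prosbeta2R2 had 37.3, where Prosbeta2 had 54.3.

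The proteins of the copies were related to their parents to varying degree, with 28.5% (Rpn13R) to 100% (Prosalpha1R) identical residues in a global alignment and a median of 55.5%. The copies closest in protein sequence after Prosalpha1R were Rpt6R (87.2%), Rpt4R (81.7%), Rpt3R (80.4%) and Prosalpha4T1 (75.1%), and all of these lacked a pooled summit. Apart from Prosalpha1R, the starts of the copies consisted almost wholly of unique sequence. With starts under 50% unique left out, 0 of 15 copies had an optimal summit and 2 of 15 (13.3%) a pooled one.

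The pair with the strongest parent was Rpn12R and Rpn12, on the same arm, with proteins 49.1% identical. Their sequences are shown to set a start without a summit in its upstream region beside one with an optimal summit: the window centres on the summit of Rpn12, 155 bp upstream, and on the same distance from the start of Rpn12R.
Rpn12R, chr3L:15042675-15042775, - strand: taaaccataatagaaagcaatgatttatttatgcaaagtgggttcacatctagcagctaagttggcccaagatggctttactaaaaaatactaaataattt
Rpn12, chr3L:16582823-16582923, + strand: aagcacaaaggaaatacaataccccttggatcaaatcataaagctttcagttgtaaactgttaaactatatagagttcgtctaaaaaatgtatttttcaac
Neither window holds any of the 7 motifs searched, so that the letters searched for did not set the pair apart.

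Short motifs were counted on both strands in windows reaching 50 bp to either side of each summit. CGATA, the core of the BEAF-32 site, was present at the strongest pooled summit of 14 of 28 standard genes (50%), against 22.2% of 7325 promoter summits in the pooled list. TATCGATA, the DNA replication-related element bound by DREF, which contains CGATA, was present at 4 of 28 (14.3%), against 3.8%. In the optimal list 6 of 11 summits at subunit genes held CGATA (54.5%) and 3 held TATCGATA (27.3%), against 22.8% and 3.67% of 2422 promoter summits. A match says only that the letters are there.

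By class, CGATA was present at 6 of 9 base summits, 6 of 11 core summits and 2 of 8 lid summits, so the class with the highest signal had the fewest. The 4 genes with TATCGATA were Prosalpha3, Prosalpha5, Prosbeta1 and Rpt5. The centre of CGATA lay 1 to 38 bp from the summit at the 14 genes, with a median of 13 bp, and 13 of the 14 matches lay upstream of the start. At the starts of the 16 copies, in windows placed at the median summit position of all genes, 4 held CGATA (25%) and 0 held TATCGATA, against 15% and 1.23% of all protein-coding genes.

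TATAAA, the letters of the TATA box, was at 6 of 28 standard summits (21.4%), against 16.7% of promoter summits in the pooled list. The share was 22.2% over promoter summits of the optimal list and 20.5% in the windows placed at the starts of all protein-coding genes. Of those 6 genes, 4 were lid genes (Rpn5, Rpn6, Rpn8 and Rpn9), whose pooled summits lay between -266 and -109 bp from the start. Whether these matches act as a TATA box was not tested. The E-box CAGCTG, the GAGA-factor word GAGAG, the word GGTCACAC bound by M1BP, and the antioxidant response element TGACNNNGC, which Cnc is known to bind with its Maf partner, were each at 1 of 28 (3.57%). Their shares over promoter summits of the pooled list were 5.79%, 11.5%, 2.81% and 3.15%. The single TGACNNNGC match was at Prosbeta3.

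Rpn2 is shown as an example of CGATA at an optimal summit, chosen after the motifs were counted. The motif is in capitals on both strands, the summit lies 42 bp before the start, and the bases end at the last one before the start.
Rpn2, chr3R:29153432-29153523, + strand: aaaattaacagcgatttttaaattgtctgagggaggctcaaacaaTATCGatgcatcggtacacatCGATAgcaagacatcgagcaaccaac
The nearer match has its centre 3 bp from the summit.

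Other genes of the proteasome and ubiquitin pathway, a list of 18 put together with earlier results of these data known, had an optimal summit at 10 (55.6%), beside the 22.5% of all protein-coding genes. Pomp, the chaperone that matures the core particle, was the strongest with 291 (rank 1070), and 94.8, 83.2 and 115 in replicates 1, 2 and 3. The transcription factor cnc had 227, its inhibitor Keap1 184 and its partner maf-S 103. The ubiquitin genes Ubi-p63E and RpS27A had 177 each, the ubiquitin-activating enzyme Uba1 had 143, the proteasome-binding protein PI31 had 142, the deubiquitinase Uch-L5 had 136 and the segregase TER94 had 107.

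In the pooled list 17 of these 18 genes had a summit (94.4%), beside 49.7% of all protein-coding genes, with Sem1, Usp14, Rad23, Ubqn, rngo, Ubi-p5E and RpL40 at 53.4 to 93.8. Sem1 is also a lid subunit, but its symbol falls outside the rule used here, so the lid shares above leave it out. It had 69.1 in the pooled list and no optimal summit. The exception was REG, an activator that caps the core particle in place of the regulatory particle, with 1 summit in replicate 2 (12.9). Limited to the strongest peaks of each replicate, the genes of this list with a summit averaged 9 ± 1 of 18, or 50% ± 5.56 (SD, n = 3), against 22.9% ± 3.61 of the 48 subunit genes and 22.1% ± 0.268 of all protein-coding genes.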

How the data were processed

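ChIP-seq peaks of Chrac-16-GFP were read in 3 replicates of 1 group. Per the labels, the dm6 and dm3 builds were used; only the dm6 lists were analysed here. The signal of each peak is the value the authors deposited in column 7 of the narrowPeak lists, and the summit is the peak start plus the deposited offset of column 10. Which caller and aligner were used is not given in the sources used here, and no control signal was analysed. Summits were compared with transcript starts of Ensembl release 115 within 500 bp (Python 3.11.15, numpy 2.4.6), and sequence came from the release 6 genome of the same build. Proteins were translated from the longest coding transcript and aligned with Biopython 1.88. The search was tested on simulated summits. No test was made: shares are set beside those of all protein-coding genes, with SD over the 3 replicates. Values are given for every gene with an optimal summit and every copy with its parent. The genes, classes, lists and motifs were chosen with earlier results of these data known.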

Additional observations from a re-analysis of the deposited data

How the results depend on the processing

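Windows of 250 or 1000 bp, overlap of any part of the peak, the first start alone, and starts with unique sequence only (added after seeing the data) left the counts of the optimal list within 1.5 times: 9 or 10 of all subunit genes, 2 of the core, 7 or 8 of the regulatory particle and 0 copies. Counting only summits nearest to the own start gave 8 subunit genes, 7 of the regulatory particle, 1 of the core and 2262 of all genes. The upper 50% of the optimal list by signal gave 3 subunit genes, 0 of the core, 3 of the regulatory particle and 1870 of all genes, with a median position of -180 bp and a median signal of 306. The pooled list gave 30, 11, 17, 2 copies and 6934, with -102 bp and 84.1. Without 1 replicate each, the counts ranged from 5 to 10 (all), 0 to 2 (core), 5 to 8 (regulatory), 0 to 0 (copies) and 2628 to 2660 (all genes), and the median position from -138 to -126.25 bp. The low ends for all subunit genes and for the regulatory particle came without replicate 1. The core count was 0 without replicate 1 and also without replicate 3, and the position of -138 bp came without replicate 3. The counts without 1 replicate use the strongest peaks of both other replicates, whose signal scale differs, so no median signal is given. This rule differs from that of the optimal list, so these counts mix the rule with the replicate left out. The cause was not tested. No paired analysis was possible because there was 1 group. Peak lists give no depth, so a missing summit means none above the threshold of its list.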
